A study of Homo sapiens with 4 samples.

Results

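CHRNA5, CHRNA3 and CHRNB4 encode subunits of neuronal nicotinic acetylcholine receptors and lie side by side on chromosome 15. SMC1-bound contacts of this cluster were followed in Kelly cells, a human neuroblastoma line, as every pair of anchors with an anchor midpoint between 78700000 and 79250000 of chromosome 15 (hg19). The window was chosen by position and selected on the measured contact count of 1 pair inside it, which is the highest of the whole data set. It held 21 of 39507 anchors and 1188 of 720049 anchor pairs, 116 of them intrachromosomal and 1072 joining chromosome 15 to another chromosome. The count of the selecting pair is therefore given below as a description, and its own test result is left out. The pair stayed in the tests over the series and in the sums of the anchors that it joins. Most sums that hold it are also given without it.

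Nicotinic receptors are ion channels of several subunits that open when acetylcholine binds. In sympathetic ganglia, which share the lineage of neuroblastoma, the α3 subunit (CHRNA3) and the β4 subunit (CHRNB4) together form the ligand-binding receptor, and α5 (CHRNA5) joins it as an accessory subunit that does not bind the ligand by itself. CHRNA3 and CHRNB4 are read in the same direction, toward lower coordinates, and CHRNA5 in the opposite one. Cohesin, the ring complex to which SMC1 belongs, holds distant stretches of a chromosome together, often where the insulator protein CTCF is bound.

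The shBORIS libraries came from cells with short hairpin RNA against BORIS (also named CTCFL, a paralog of CTCF), and their controls carried shLUC. Each group had 2 libraries. Their titles are numbered, and whether the numbers mark different hairpins or repeats of 1 hairpin is not given. All cells were of the TAE684-resistant Kelly derivative, kept in 1 µM of that ALK inhibitor, infected for 24 h and put under puromycin for 48 h. ChIA-PET ligates the ends of DNA fragments held by the precipitated protein and counts each joined fragment as 1 paired-end tag (PET). The shBORIS table held 449979 PETs, 163041 of them intrachromosomal, and that of shLUC 434975 PETs, 146140 of them intrachromosomal. Each table pools its libraries, so no value below has a replicate error and each test compares 2 pools, not the conditions. Scaled ratios divide shBORIS by shLUC after division by the table's PETs of the same kind, with 95% exact binomial intervals that cover counting error only. The level of BORIS was not analysed here.

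By the hg19 spans used, CHRNA5 covered 78857862-78887611, CHRNA3 78885394-78913637 and CHRNB4 78916636-78933587. Each gene had 1 anchor, and in each case that anchor held the first base of the gene. The CHRNA5 anchor, 78857492-78858250, was 759 bp wide. The CHRNA3 anchor, 78910184-78914803, was 4620 bp wide and the CHRNB4 anchor, 78929555-78934734, was 5180 bp wide, against a median of 1172 bp over all anchors. No other anchor is given a gene name, since no hg19 annotation was used. In RefSeq's gene order for GRCh38.p14, the protein-coding genes IREB2, HYKK and PSMA4 precede CHRNA5, and ADAMTS7, MORF4L1, CTSH and RASGRF1 follow CHRNB4. That annotation gives CHRNB4 a length of 37531 bp where the hg19 span is 16952 bp. The difference is smaller than the distance from the first base of CHRNB4 to the nearest anchor upstream, which begins at 78963240. By these lengths, a longer gene that holds the hg19 span would not reach that anchor. The other anchors are named below by the distance of their midpoint from the first base of CHRNB4, with upstream on the side away from CHRNA3.

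The promoter sequences of CHRNA3 and CHRNB4 are shown because both gene starts lay inside wide anchors with many contacts. They are RefSeq sequences of build GRCh38.p14, minus strand, 250 bases before and 50 after the annotated start, at chr15:78620947-78621246 for CHRNA3 and chr15:78641161-78641460 for CHRNB4. Positions were not converted between builds. The table had an entry for 2 of the 3 genes; CHRNA5 had none. Capitals mark matches on either strand to AGGNGGC, which is a stretch within the core of the CTCF motif, or to GGGCGG, the GC box bound by factors of the Sp family.
CHRNA3: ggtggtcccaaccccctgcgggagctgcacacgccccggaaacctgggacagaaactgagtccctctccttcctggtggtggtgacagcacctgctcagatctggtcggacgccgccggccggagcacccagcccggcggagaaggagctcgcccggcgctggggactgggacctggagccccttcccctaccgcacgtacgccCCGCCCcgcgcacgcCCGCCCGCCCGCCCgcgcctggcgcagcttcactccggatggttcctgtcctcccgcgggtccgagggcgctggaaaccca
CHRNB4: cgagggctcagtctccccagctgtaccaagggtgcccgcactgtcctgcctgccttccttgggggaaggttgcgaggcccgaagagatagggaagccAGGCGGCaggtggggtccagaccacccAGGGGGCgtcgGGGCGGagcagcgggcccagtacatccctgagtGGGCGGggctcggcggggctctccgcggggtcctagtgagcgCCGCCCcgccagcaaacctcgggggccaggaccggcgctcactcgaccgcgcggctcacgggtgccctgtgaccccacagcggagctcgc

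In the CHRNB4 promoter AGGNGGC occurred 2 times and in that of CHRNA3 0 times, where 35.9% of 35116 promoter entries of the same length hold it. The GC box occurred 4 times in the CHRNA3 promoter, with overlapping matches, and 3 times in that of CHRNB4, where 45.0% of entries hold it. Both promoters had 72.7% G and C, against a median of 58.7% over all entries. A match of letters is no measured binding, and its absence from this stretch says nothing of CTCF elsewhere in the anchor.

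The contacts of the window were gathered in 6 successive anchors that included the starts of CHRNA3 and CHRNB4 but not that of CHRNA5. These were the CHRNA3 and CHRNB4 anchors and 4 anchors upstream of CHRNB4, at 31 kb (78963240-78965595), 40 kb (78972376-78975497), 44 kb (78977118-78978644) and 68 kb (79000300-79002613). They spanned 92.4 kb and were grouped by their PETs after these had been seen. All 15 possible pairs among them had PETs in both tables. Together the 15 pairs held 297 of 388 intrachromosomal PETs of the window in shBORIS (76.5%, interval 72.0 to 80.7) and 179 of 261 in shLUC (68.6%, 62.6 to 74.2). Of the 6 anchors' own intrachromosomal PETs, 88.7% in shBORIS and 87.7% in shLUC stayed within the 15 pairs. Without the selecting pair these shares were 82.8% in shBORIS and 80.9% in shLUC. With the selecting pair left out, the other 14 pairs held 66.8% of the window's remaining PETs in shBORIS (60.9 to 72.3) and 56.4% in shLUC (49.0 to 63.6).

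**Figure D1:**
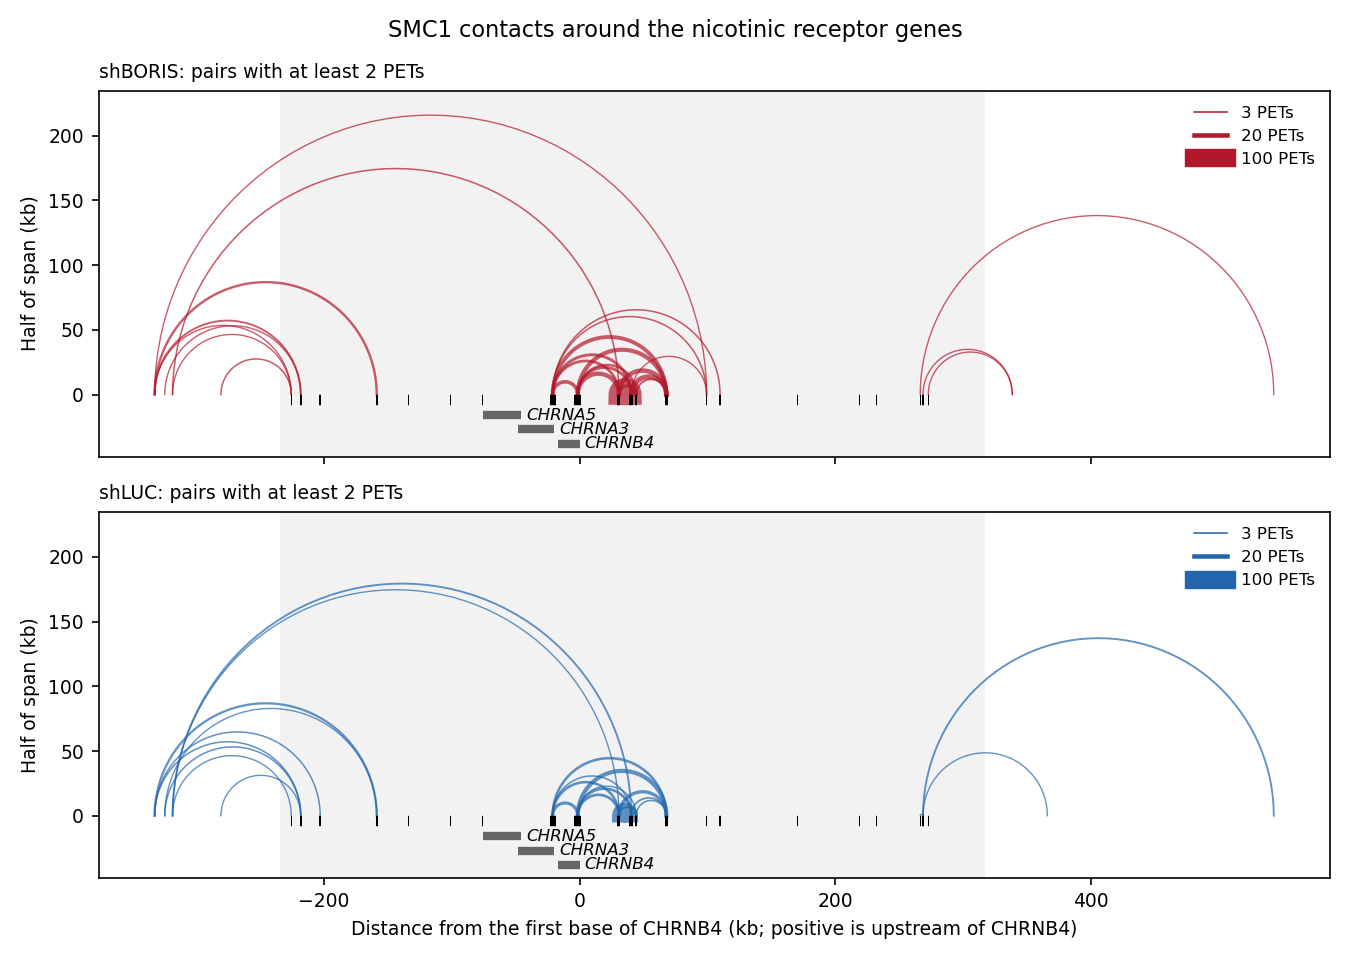
Arcs join the midpoints of anchors with at least 2 PETs, shBORIS above and shLUC below, by distance in kb from the first base of CHRNB4, and the height of an arc grows with its span. Line width grows with the PET count, black marks are anchors, grey bars the 3 genes and the shaded field the window. The thick arcs gather between CHRNA3 and the 68-kb anchor in both tables.

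Linkage of every pair in such a run was uncommon. Over the series, 8659 runs of 6 successive anchors lay within 100 kb, and 1 of them, this one, had all 15 pairs in both tables. At least 12 of the 15 pairs were present in 21 runs, or 0.243%. The run length and extent were set after this group had been seen, so these counts describe the series and test nothing. The 6 anchors were between 1527 and 5180 bp wide, and 19.7% of all anchors were at least as wide as the narrowest of them.

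CHRNA5, the accessory subunit, had almost no contacts. Its anchor had 1 intrachromosomal PET in shBORIS, with the CHRNB4 anchor 74.3 kb away, and 1 in shLUC, with 78832501-78833218 on its other side. No PET joined the CHRNA5 and CHRNA3 anchors in either table, which at a floor of 3 counts allows up to 3 PETs in each. At this depth a contact of that size was not detectable. Low counts of this kind were common, since 17.2% of all anchors in shBORIS and 18.1% in shLUC had 1 or fewer intrachromosomal PETs. The anchor had 9 interchromosomal PETs in shBORIS and 7 in shLUC, so that 10.0% of its PETs in shBORIS and 12.5% in shLUC were intrachromosomal. Over all anchor pairs these shares were 36.2% in shBORIS and 33.6% in shLUC.

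CHRNA3, the ligand-binding α subunit, had 61 intrachromosomal PETs at its anchor in shBORIS and 36 in shLUC. Of these, 53 in shBORIS and 34 in shLUC went to the other 5 anchors of the group. Its most frequent partner was the 68-kb anchor in shBORIS, with 16 PETs against 9 in shLUC, across 89.0 kb. The CHRNB4 anchor followed in shBORIS with 15 PETs, against 12 in shLUC, where it was the first. The 31-kb anchor had 10 PETs with CHRNA3 in shBORIS and 9 in shLUC, and the 40-kb anchor had 11 in shBORIS and 3 in shLUC. With the 44-kb anchor the CHRNA3 anchor had 1 PET in each table. CHRNA3 thus shared more PETs with the farthest anchor of the group than with the 2 anchors at 40 and 44 kb that lie between. Beyond the group, the CHRNA3 anchor reached an anchor at 99 kb with 3 PETs in shBORIS and 1 in shLUC, and an anchor at 110 kb with 3 in shBORIS and 0 in shLUC.

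CHRNB4, the β subunit that pairs with α3, had 74 intrachromosomal PETs at its anchor in shBORIS and 55 in shLUC, of which 71 in shBORIS and 51 in shLUC lay inside the group. Its contact with the 68-kb anchor, across 69.3 kb, had 18 PETs in each table. The 31-kb anchor had 19 PETs with CHRNB4 in shBORIS and 10 in shLUC. The order of these partners thus differed between the tables, with 68 kb first in shLUC and 31 kb first by 1 PET in shBORIS. The 40-kb anchor had 11 PETs with CHRNB4 in shBORIS and 9 in shLUC, and the 44-kb anchor 8 in shBORIS and 2 in shLUC. Set against listed pairs of a span within 20% of its own, the contact of CHRNB4 with the 68-kb anchor, with 36 PETs summed, was reached by 41 of 10399, itself included. For that of CHRNA3 with the 68-kb anchor, with 25 PETs summed, the number was 67 of 11707, and for the contact between the CHRNA3 and CHRNB4 anchors, with 27 summed, 24 of 4652. The median of such pairs was 1 PET at the first 2 spans and 2 PETs at the third.

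**Figure D2:**
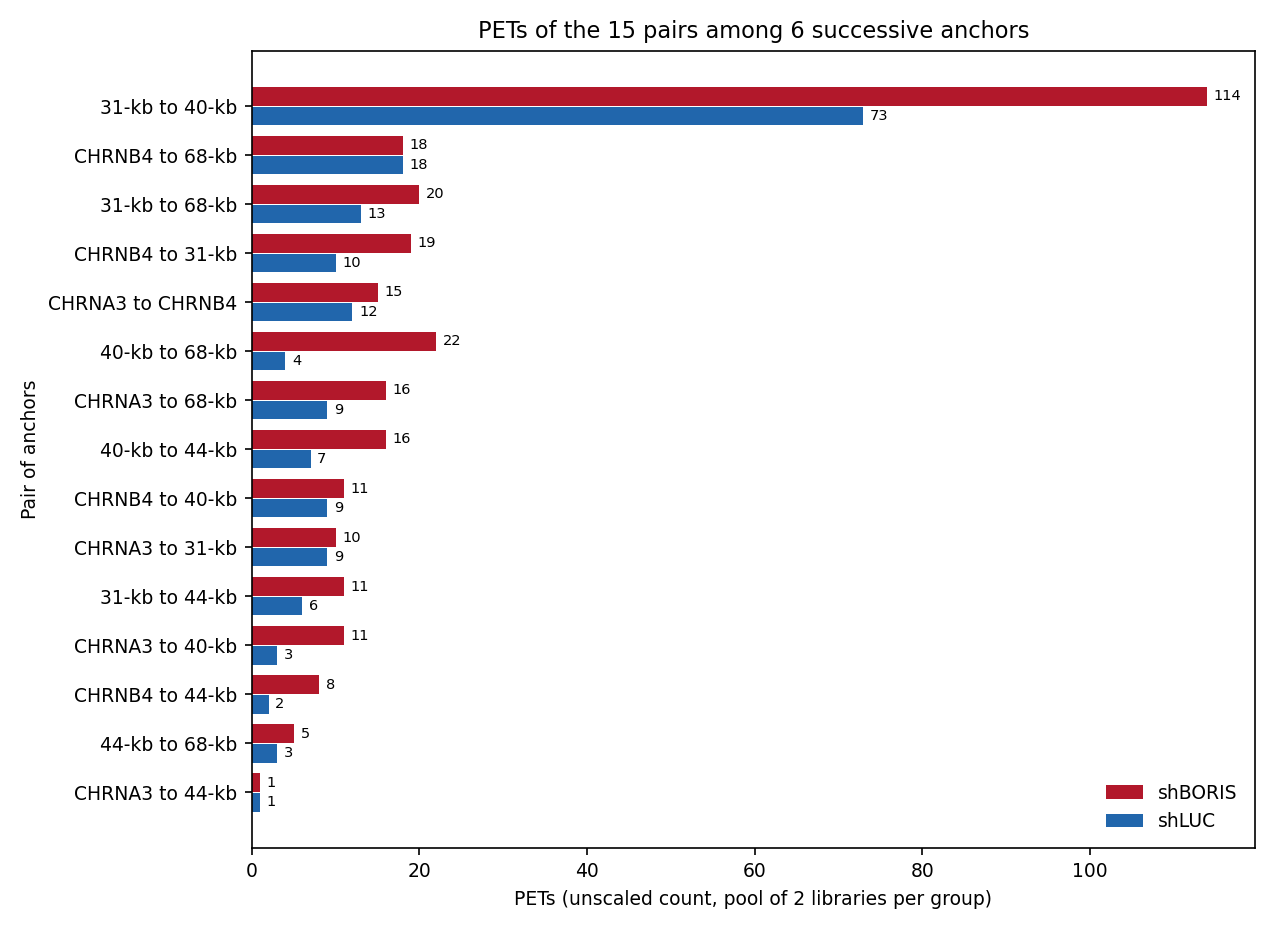
Bars give the PETs of the 15 pairs among the 6 anchors as unscaled counts, shBORIS above shLUC within each pair, ordered by the sum; anchors upstream of CHRNB4 are named by their distance in kb. The pair of the 31-kb and 40-kb anchors had 114 PETs in shBORIS and 73 in shLUC, and the other pairs at most 22 in shBORIS and 18 in shLUC.

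The pair that selected the window joined the 31-kb and 40-kb anchors across 9.52 kb, outside the 3 gene spans. It had 114 PETs in shBORIS and 73 in shLUC, and its sum of 187 was followed in the series by a pair with 133. It made up 29.4% of the window's intrachromosomal PETs in shBORIS (24.9 to 34.2) and 28.0% in shLUC (22.6 to 33.8). The 31-kb anchor had 180 intrachromosomal PETs in shBORIS and 117 in shLUC, of which 66 in shBORIS and 44 in shLUC belonged to other pairs. The 40-kb anchor had 185 in shBORIS and 105 in shLUC, of which 71 in shBORIS and 32 in shLUC belonged to other pairs. With that pair left out, 0.648% of all anchors in shBORIS and 1.25% in shLUC had at least as many PETs as the 31-kb anchor, and 0.506% in shBORIS and 2.76% in shLUC at least as many as the 40-kb anchor. The 68-kb anchor had 87 PETs in shBORIS and 49 in shLUC, and the 44-kb anchor 45 in shBORIS and 21 in shLUC. The lowest count in the group was that of the 44-kb anchor, above the highest of the other 15 anchors of the window, which was 13 in each table.

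The group had more PETs in shBORIS than in shLUC, among its own pairs and in interchromosomal PETs. The window's intrachromosomal pairs outside the 15 had together a ratio near 1, which mixes pairs with and without the 6 anchors. Over the whole window the scaled ratio of intrachromosomal PETs was 1.33 (1.14 to 1.56, on 388 PETs in shBORIS and 261 in shLUC), and 1.31 (1.08 to 1.58) without the selecting pair. The 15 pairs had a scaled ratio of 1.49 (1.23 to 1.80), and 1.55 (1.21 to 1.98) with the selecting pair left out. The remaining 101 intrachromosomal pairs had 91 PETs in shBORIS against 82 in shLUC, and their ratio was 0.995 (0.730 to 1.36). They include pairs that join the 6 anchors to other places, and no ratio was computed for these alone. Within 500 kb such pairs had 8 PETs in shBORIS and 9 in shLUC toward CHRNA5, and 14 in shBORIS and 7 in shLUC on the far side. Between 500 kb and 2 Mb they had 0 in shBORIS and 1 in shLUC, and over 2 Mb 16 in shBORIS and 8 in shLUC. All intrachromosomal pairs of the 6 anchors, the selecting one included, had 335 PETs in shBORIS and 204 in shLUC (ratio 1.47, 1.23 to 1.76). Pairs with none of the 6 anchors had 53 in shBORIS and 57 in shLUC. Of the 15 pairs, the selecting one included, 13 had more PETs in shBORIS as unscaled counts, 2 had equal counts and 0 had fewer. The shBORIS table also held more intrachromosomal PETs in all. After scaling, 12 of the 15 ratios were above 1. The 15 ratios lay between 0.896 and 4.93 with a median of 1.49. These pairs share 6 anchors picked by their PETs and so are no separate observations. The same counts over all pairs of the series are not given here. Interchromosomal PETs of the same 6 anchors moved with these values, numbering 424 in shBORIS against 297 in shLUC, with a scaled ratio of 1.44 (1.24 to 1.67). At the other 15 anchors they numbered 192 in shBORIS against 163 in shLUC, with a ratio of 1.19 (0.957 to 1.47). The share of intrachromosomal PETs at the 6 anchors was 44.1% in shBORIS (40.6 to 47.8) and 40.7% in shLUC (36.4 to 45.2). Both shares hold the selecting pair and were not computed without it. The part of the anchors' overall recovery in the difference between the tables was not tested. Among 548 stretches of 550 kb with at least 200 intrachromosomal PETs, the central 95% of scaled ratios ran from 0.746 to 1.36; 3.10% were at or above the ratio of the window and 4.74% at or above its ratio without the selecting pair.

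**Figure D3:**
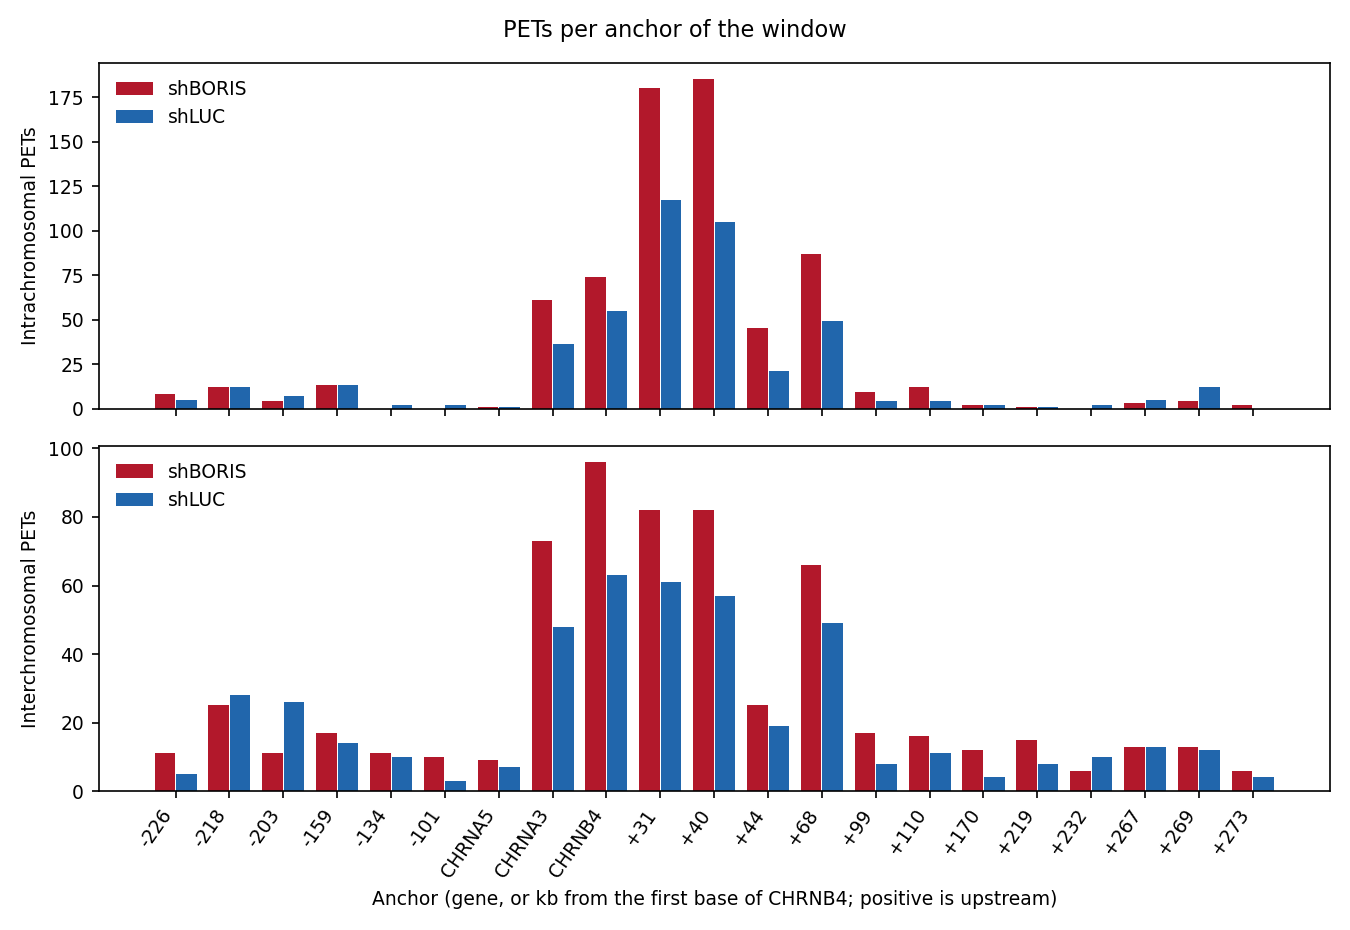
Bars give intrachromosomal PETs (upper panel) and interchromosomal PETs (lower panel) of each of the 21 anchors, shBORIS left of shLUC, ordered along the chromosome and named by gene or by kb from the first base of CHRNB4. The 6 anchors of the group stand above the others in the upper panel, and all of them but the 44-kb anchor in the lower one. As unscaled counts, both kinds of PET were more numerous in shBORIS at each of the 6.

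Leaving the selecting pair aside, no pair of the window passed the test across the series. Of its 116 intrachromosomal pairs, 14 had the 10 summed PETs needed. Besides the selecting pair these were 13, and 0 of the 13 had an adjusted p under 0.05 (Fisher's exact test per pair, Benjamini-Hochberg adjustment over 3951 pairs), where 0.0506% of all tested pairs did. At an unadjusted p under 0.05, 1 of the 13 was higher in shBORIS and 0 lower, where 3.06% of all tested pairs were higher and 2.63% lower. A negative binomial test with an assumed dispersion of 0.1 also called 0 of the 13, with 1 pair at an unadjusted p under 0.05. The median scaled ratio of the 13 was 1.59, and that of all tested pairs 1.02. Most of the 13 were pairs of the group, which had been picked by its PETs. The largest ratio was that of the 40-kb and 68-kb anchors, with 22 PETs in shBORIS and 4 in shLUC (4.93, 1.67 to 19.7, Fisher's exact test, unadjusted p = 0.00119, adjusted p = 0.313). CHRNB4 with the 44-kb anchor had a ratio of 3.59 (0.716 to 34.7) and CHRNA3 with the 40-kb anchor 3.29 (0.868 to 18.3), on the counts given above. These 3 pairs had at most 4 PETs in shLUC and reached the minimum of 10 summed PETs mainly through shBORIS, which favours high ratios among them. The lowest ratios were those of CHRNB4 with the 68-kb anchor, 0.896 (0.440 to 1.83), of CHRNA3 with the 31-kb anchor, 0.996 (0.364 to 2.77), and of 78600128-78601954 with the anchor 159 kb downstream of CHRNB4, 1.02 (0.325 to 3.32). With scaling to all PETs the ratio of CHRNA3 with the 31-kb anchor was 1.07. Intervals as wide as those of CHRNA3 and CHRNB4 with single upstream anchors leave changes of several fold undetectable at this depth.

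Summed per anchor, 13 of the 21 anchors had 10 or more intrachromosomal PETs, and 0 of them had an adjusted p under 0.05 (Fisher's exact test over 19623 anchors), where 0.0204% of all tested anchors did. At an unadjusted p under 0.05, 4 of the 13 were higher in shBORIS and 1 lower, where 3.25% of all tested anchors were higher and 3.17% lower. The 4 were the 31-kb, 40-kb, 44-kb and 68-kb anchors, which share PETs with each other and so are no separate observations. The counts of the 31-kb and 40-kb anchors hold the PETs of the selecting pair, and without it 3 anchors were higher, the 40-kb, 44-kb and 68-kb ones, and 1 lower. The 40-kb anchor then had a scaled ratio of 1.99, with an interval from 1.29 to 3.12 (adjusted p = 0.368 by Fisher's exact test), and the 31-kb anchor 1.34, with an interval from 0.904 to 2.02. With all PETs of a table as the total in place of the intrachromosomal ones, the 40-kb anchor passed with the selecting pair counted (Fisher's exact test, adjusted p = 0.0475) and did not pass without it (adjusted p = 0.188). That pass draws on the count that selected the window, so nothing is concluded from it. CHRNA3 had a ratio of 1.52 (0.990 to 2.36, adjusted p = 0.765) and CHRNB4 1.21 (0.839 to 1.74, adjusted p = 1.00, Fisher's exact test for both). The interchromosomal ratio was 1.53 at CHRNA3 (1.05 to 2.25) and 1.53 at CHRNB4 (1.10 to 2.14). The lower one was an anchor 269 kb upstream of CHRNB4, 79201709-79202947, with 4 PETs in shBORIS and 12 in shLUC (ratio 0.299, interval 0.0702 to 0.986, adjusted p = 0.750 by Fisher's exact test).

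Nearly all contacts among the 6 anchors met the criteria for a called interaction in both tables. An interaction was called at 3 or more PETs with a Bayes probability, the authors' own, of at least 0.9. In the window 21 were called in shBORIS and 19 in shLUC, 15 of them in both, which is 60.0% of those called in either, where the series gave 34.8%. Of the 15 pairs among the 6 anchors, 14 were called in shBORIS and 13 in shLUC, all 13 of them in both. The contact called in shBORIS alone was CHRNB4 with the 44-kb anchor, and the pair called in neither was CHRNA3 with the 44-kb anchor. The counts of the window and of the 15 pairs hold the selecting pair, which was called in both. Outside the 15 pairs, 2 of 7 calls in shBORIS (28.6%) and 2 of 6 in shLUC (33.3%) were called in both. Over the series these shares were 48.0% of calls in shBORIS and 56.0% in shLUC. The 9 called in 1 table alone had at most 5 PETs there. The 6 anchors had been grouped by their PETs, so calls among them largely follow from that choice. Of the window's 15 calls in both tables, 13 were among them. Over the series, 13111 of 147452 listed intrachromosomal pairs were called in shBORIS and 11236 in shLUC. Calls in both tables go with high counts, and the share in the window was not compared at equal counts.

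Few PETs left the group on either side. Toward CHRNA5 and within 500 kb, the 6 anchors had 8 PETs in shBORIS and 9 in shLUC, among them 1 PET in shBORIS and 5 in shLUC between 78613978-78616129 and the 40-kb anchor across 359 kb, and 3 in shBORIS and 2 in shLUC between the same place and the 31-kb anchor. On the far side within 500 kb there were 14 PETs in shBORIS and 7 in shLUC. The PETs of up to 2 Mb that crossed the gap between the CHRNA5 and CHRNA3 anchors numbered 17 in shBORIS and 12 in shLUC, while the next gap, between CHRNA3 and CHRNB4, was crossed by 76 in shBORIS and 48 in shLUC. Between CHRNB4 and the 31-kb anchor 117 crossed in shBORIS and 76 in shLUC, and between the 40-kb and 44-kb anchors 134 in shBORIS and 68 in shLUC. The gap between the 31-kb and 40-kb anchors was crossed by 230 in shBORIS and 148 in shLUC, and without the selecting pair, which crosses this gap alone, by 116 in shBORIS and 75 in shLUC. Past the 68-kb anchor 23 crossed in shBORIS and 11 in shLUC, and between 110 and 170 kb upstream 2 in shBORIS and 5 in shLUC. The starts of the 3 genes thus lay on different sides of a step in the crossing counts. Those of CHRNA3 and CHRNB4 were inside the linked stretch and that of CHRNA5 before it. The part of CHRNA3 below 78910184 lay before the stretch too.

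**Figure D4:**
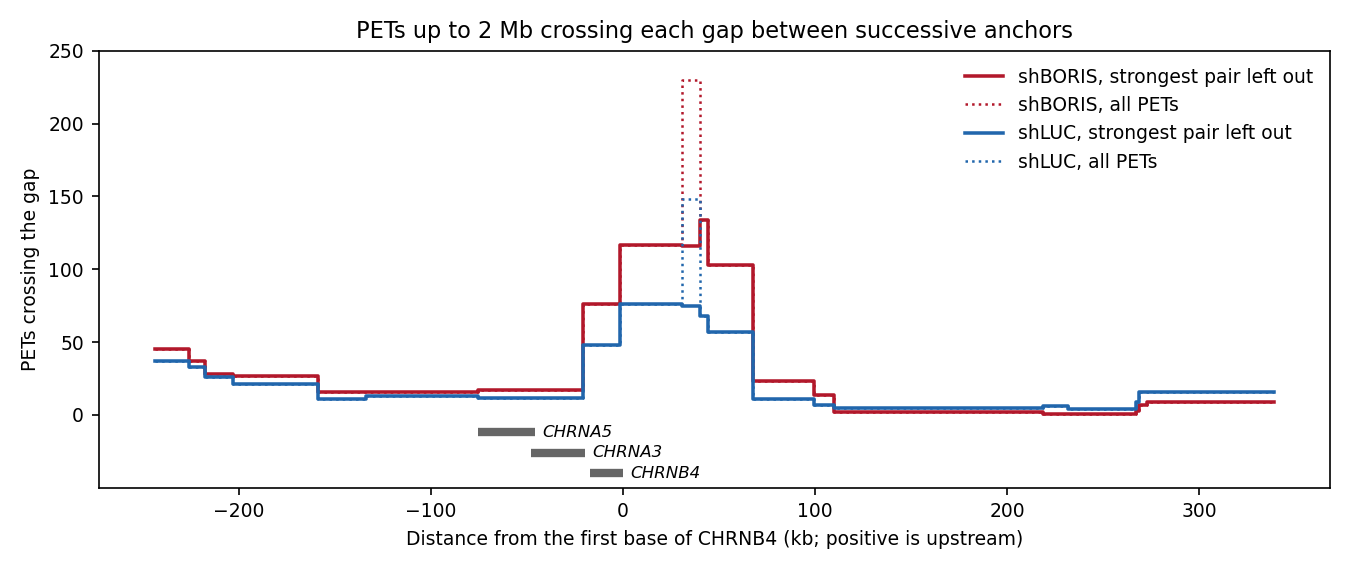
Lines give the number of PETs of up to 2 Mb that crossed each gap between successive anchors, shBORIS and shLUC, by distance in kb from the first base of CHRNB4, solid without the selecting (strongest) pair and dotted with it; grey bars are the 3 genes. Solid lines step up at the CHRNA3 anchor, reach 134 in shBORIS and 76 in shLUC between CHRNB4 and the 44-kb anchor, and past the 68-kb anchor are at 23 in shBORIS and 11 in shLUC.

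The anchors at both ends of the window had partners outside it. On the low side, the anchor 159 kb downstream of CHRNB4 contacted 78600128-78601954 with 8 PETs in shBORIS and 7 in shLUC across 174 kb, and the anchor at 218 kb contacted the same place with 5 in shBORIS and 3 in shLUC. On the high side, the anchor at 269 kb upstream contacted 79475891-79477746 across 274 kb with 0 PETs in shBORIS and 5 in shLUC. Counts were low on both sides of each limit. Just inside the low limit 78707432-78708457 had 8 intrachromosomal PETs in shBORIS and 5 in shLUC, and just outside it 78688864-78689987 had 6 in each table. Just inside the high limit 79206063-79206899 had 2 in shBORIS and 0 in shLUC, and just outside it 79271536-79272846 had 5 in shBORIS and 7 in shLUC.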

How the data were processed

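The labels of both libraries in a group point to 1 table, which was taken as their pool. The authors deposited PET counts per anchor pair, unnormalized whole numbers from 1, per the file headers. The deposited hypergeometric p-value is the authors' and was left unused. The deposited Bayes probability is a fraction between 0 and 1, per the file headers. The shBORIS table lacks a header, and the order of columns was taken from the other table. Per the submitters' processing notes, cutadapt 1.8 and Bowtie were used on hg19, with no role given. The program that defined anchors is not given in the sources used here. Coordinates count from 1.

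Fisher's exact test was run genome-wide on all intrachromosomal pairs, and on all anchors, with at least 10 summed PETs, set against the remaining intrachromosomal PETs of the table, with Benjamini-Hochberg adjustment at 0.05. Pairs named were the 10 with the most PETs, those called with a receptor gene's anchor, the 3 highest and 3 lowest ratios and distant pairs with 3 or more PETs, of which there were 0. Other anchors and pairs at the edges were named after their values were seen. Members and lists were chosen with earlier results of these data known. Scripts (Python 3.11.15, scipy 1.17.1, pandas 2.3.3) were tested on simulated counts. Alternatives varied filter, scaling, dispersion, call minimum and membership. Since no molecular identifiers mark PCR copies, PETs need not be independent molecules. CHRNA5's strand is background knowledge.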

Additional observations from a re-analysis of the deposited data

How the results depend on the processing

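There were 26 results, 12 on the window, its genes and its group of 6 anchors and 14 on single tested pairs, the selecting one among them. Of 98 alternatives, 92 kept the direction, the side of the threshold or a count within the limits, 4 moved and 2 reversed. Taking all PETs as the total raises every intrachromosomal ratio 1.08-fold (0.11 on the log2 scale). With that total, 1 anchor passed, the 40-kb one (Fisher's exact test, adjusted p = 0.0475), and 0 when the selecting pair was also left out, a setting chosen after seeing the data (adjusted p = 0.188). The pass draws on the count that selected the window, and nothing is concluded from it. The ratio of CHRNA3 with the 31-kb anchor became 1.07 with that total. Leaving out the 15 pairs, an alternative chosen after seeing the data like those on the 15 pairs themselves, gave a window ratio of 0.995, where the 15 pairs had 1.49. The pairs that remain mix outward pairs of the 6 anchors with pairs that hold none of them. Other settings gave window ratios between 1.22 and 1.46. The ratio of the 15 pairs lay between 1.41 and 1.60. With at least 5 PETs for a call, 2 interactions were called in shLUC alone, and with both anchors required in the window 3 were called in shBORIS alone and 0 in shLUC alone, which follows from fewer pairs. Leaving the selecting pair aside, no pair of the window passed under any setting, with a smallest adjusted p between 0.245 and 1.00 over Fisher's exact tests and the negative binomial test with a dispersion of 0.1. No paired analysis was possible because the 2 libraries of a group come as 1 table, and for the same reason no library could be left out. Depth limits single pairs to changes of several fold.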

Other observations

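Interchromosomal pairs with more than 1 PET were few in the window and could be only few in the series. All 572597 interchromosomal pairs of the series held 286938 PETs in shBORIS and 288835 in shLUC. Of the window's 1072 interchromosomal pairs, 0 had PETs in both tables, and the highest count in a table was 2 PETs. A count of 2 was reached by 4 pairs. In shBORIS these joined the CHRNB4 anchor to chromosome 14, at 23321655-23323439, and the anchor 267 kb upstream to chromosome 1, at 210895355-210896720. In shLUC they joined the 40-kb anchor to chromosome 4, at 109493477-109494306, and the anchor 269 kb upstream to chromosome 10, at 112369284-112370883. On chromosome 15 itself, 33 pairs of the window spanned over 2 Mb, each with 1 PET in 1 table. The share of such pairs over the series was not analysed here.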
